A study of Mus musculus with 12 samples.

Results

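The genes described here are the upstream sensors of the integrated stress response and the complex that they act on: the 4 eIF2 kinases Eif2ak1 to Eif2ak4, Eif2s1, which encodes the α subunit of the initiation factor eIF2, and Eif2b1 to Eif2b5, which encode the 5 subunits of its nucleotide exchange factor eIF2B. The 10 genes were matched by symbol among 55536 Ensembl features in the deposited counts, and all 10 had enough counts to be tested in every comparison. Splenic B cells from 3 control mice (Cd19Cre/+) and 3 Pdap1-deficient mice (Pdap1F/F Cd19Cre/+), all on a C57BL/6 background, were each cultured for 48 h in 2 ways, which gave 12 RNA-seq libraries. One culture received LPS (5 μg/ml) with IL-4 (5 ng/ml), which directs switching to IgG1, and the other received LPS (5 μg/ml) with BAFF (10 ng/ml) and TGFβ (2 ng/ml), which directs switching to IgG2b. Every mouse, controls included, carried 1 Cd19Cre allele, which expresses Cre in the B lineage. The study asked how B cells without Pdap1 differ in gene expression from control B cells, and the comparisons given here ask it of these 10 genes.

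The eIF2 kinases sense different stresses and converge on 1 serine of eIF2α. Eif2ak1 (HRI) responds to heme shortage and to signals from damaged mitochondria, Eif2ak2 (PKR) to double-stranded RNA, Eif2ak3 (PERK) to unfolded proteins in the ER and Eif2ak4 (GCN2) to amino acid shortage. Phosphorylated eIF2α binds eIF2B tightly and blocks it, so that general translation falls while a few mRNAs with upstream reading frames, Atf4 above all, are translated more. Activity is set by phosphorylation, which RNA-seq does not measure, and the values below are amounts of mRNA.

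The stretches shown are the codon on which the kinases converge and the 2 promoter matches found. Eif2ak2 was the only kinase gene with a match, and the other match was in Eif2s1. The first stretch spans chr12:78866653-78866709 on the plus strand of GRCm38, within the coding sequence of transcript ENSMUST00000071230. The serine codon, in capitals, lies in exon 2 of Eif2s1 at chr12:78866680-78866682. Counted from the first ATG it is codon 52, which is serine 51 in the numbering of the protein without its first methionine.
Eif2s1, serine codon: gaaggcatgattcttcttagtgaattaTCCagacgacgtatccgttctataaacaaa
A paired site for interferon regulatory factors (IRF; the letters GAAA, any 2 bases and GAAA again, searched on both strands) was looked for in RefSeq promoter windows of GRCm38.p6, which run from 250 bases before to 50 bases after a start site. Among 32851 windows 3.44% held a match. Windows were present for 9 of the 10 genes, with Eif2b3 the exception, and 2 of the 9 genes held a match, shown in capitals.
Eif2ak2, chr17:78882535-78882564, minus strand, bases 19 to 28 after the start site: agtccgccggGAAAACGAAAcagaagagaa
Eif2s1, chr12:78861850-78861879, plus strand, bases -212 to -203 from the start site: cctggagcaaGAAACAGAAActtacctctc
Both stretches lie inside the gene as GENCODE M21 draws it. Of a list of 20 interferon-stimulated genes, 13 had a window and 10 of the 13 held the IRF pair. The composite Atf4-C/EBP letters TGATGNAA, found in 3.97% of all windows, were not in the windows of the 9 genes. A match is a description of letters and not a sign of binding.

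Totals ran from 9386667 to 15869143 counts with LPS-IL-4. With LPS-BAFF-TGFβ they ran from 4579793 to 69500640 counts, the highest total being that of control mouse 1. The 10 genes had between 155 and 23782 counts per library, so that none of them was near the floor of detection. All 8 B cell markers (Cd79a and others) had counts in every library. Of 8 myeloid markers, among them Lyz2 and Csf1r, 5 to 8 had counts in a library, and their sum reached 312.2 and 549.2 CPM (counts relative to the library total, scaled by TMM) in the cultures of Pdap1-deficient mouse 2, 38 and 80.1 CPM in those of Pdap1-deficient mouse 3, and 9.08 to 28.4 CPM in the other 8 libraries. T cell and NK cell markers summed to at most 25.8 and 5.11 CPM, and erythroid markers to at most 24.3 CPM. The 6 plasma cell markers summed to 622.3 to 673.8 CPM in control and 747.5 to 891.9 CPM in Pdap1-deficient cells with LPS-IL-4. With LPS-BAFF-TGFβ they summed to 449.5 to 527.4 and 475.1 to 527.3 CPM. By genotype edgeR called 1 of the 5 tested, higher, with LPS-IL-4 (4.92% of all genes) and 0 of 5 with LPS-BAFF-TGFβ (0.462%). Pdap1 itself measured 93, 91.4 and 97.8 CPM in control mice 1, 2 and 3 with LPS-IL-4 and 23.3, 27.2 and 29.9 CPM in the Pdap1-deficient mice. With LPS-BAFF-TGFβ it measured 199, 80.3 and 100 CPM in controls and 26.4, 26 and 23 CPM in Pdap1-deficient cells. Pdap1 mRNA was thus well below control in all 6 Pdap1-deficient libraries, with an edgeR adjusted p of 3.52e-05 for LPS-IL-4 and of 0.0929 for LPS-BAFF-TGFβ, where control mouse 1 stood apart (1.77e-14 in DESeq2). The deleted segment is exon 2 and the counts cover the whole gene, so the remaining counts do not measure intact mRNA. Arpc1b overlaps Pdap1 on the opposite strand, and the strand setting used in counting is not given.

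To place the 10 genes on one scale, CPM values were divided by the length in kilobases of the union of exons, which gives RPKM. Averaged over the 12 libraries, Eif2s1 stood highest at 68 RPKM and was above the next gene, Eif2b5, in 12 of 12 libraries. Eif2b5, the catalytic ε subunit, averaged 60.6 RPKM and exceeded Eif2ak2 in 10 of 12 libraries. The remaining eIF2B genes were spread widely, with Eif2b1 (α subunit) at 29.8, Eif2b2 (β subunit) at 22.7, Eif2b4 (δ subunit) at 17.3 and Eif2b3 (γ subunit) at 9.13 RPKM. With the longest coding transcript as the length, Eif2b3 came to 15.9 and Eif2b5 to 61.6 RPKM, so the spread between subunits depends on the length used. Eif2b1 stood above Eif2b2, and Eif2b2 above Eif2b4, in 12 of 12 libraries on the first scale.
Among the kinases Eif2ak2 was the most abundant, with 37.7 RPKM on average, a low of 23.3 and a high of 65. Eif2ak4, Eif2ak1 and Eif2ak3 followed at 10.1, 8.04 and 7.72 RPKM. Over the 12 libraries each gene's range overlapped that of the next in order, except at the step from Eif2b4 to Eif2ak4, and neighbours from Eif2ak4 down kept their order in only 8 or 9 of 12. Eif2ak2 made up 46.9% to 71% of the summed kinase RPKM of a library.

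**Figure D1:**
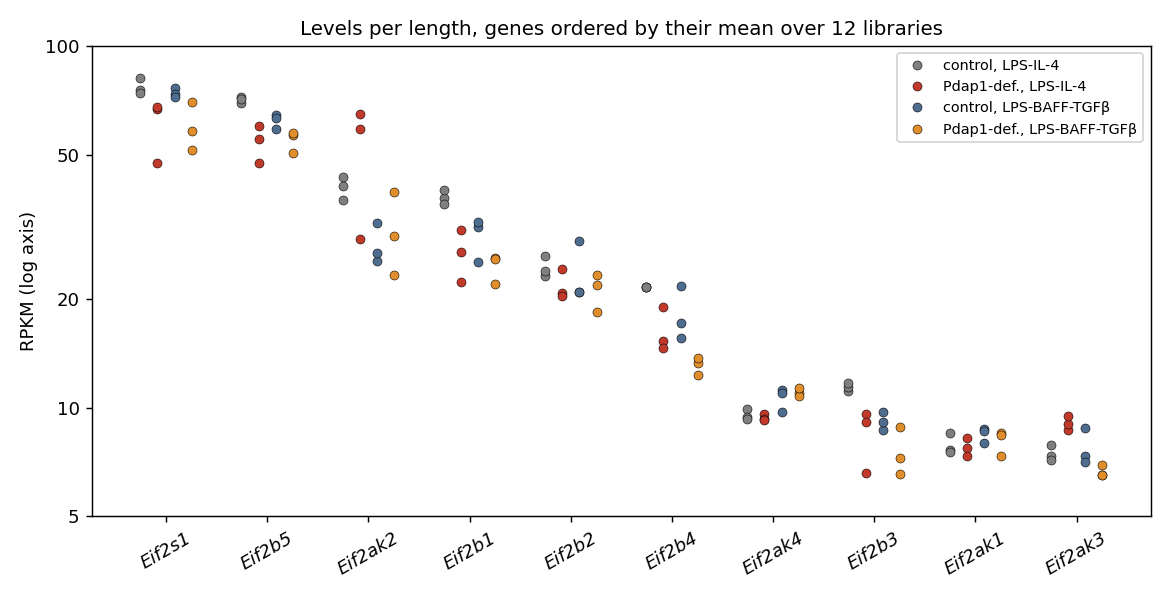
RPKM (log axis) of each gene in each of the 12 libraries, with 1 point per library coloured by group and genes ordered by their mean. Eif2s1 and Eif2b5 stand highest, Eif2ak2 is spread most widely and the other 3 kinases lie at 11.3 RPKM or below.

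The ratio of Eif2s1 to the mean of the 5 eIF2B genes, a measure of substrate to exchange factor mRNA, was 2.32, 2.46 and 2.16 in control mice 1, 2 and 3 with LPS-IL-4, against 2.34, 2.11 and 2.69 in their Pdap1-deficient counterparts. With LPS-BAFF-TGFβ it was 2.46, 2.57 and 2.79 in controls and 2.33, 2.35 and 2.71 in Pdap1-deficient cells. The genotypes overlapped in both cultures, with means of 2.31 ± 0.15 and 2.38 ± 0.292 (SD, n = 3) with LPS-IL-4 and 2.61 ± 0.168 and 2.46 ± 0.214 with LPS-BAFF-TGFβ.

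With LPS-IL-4, Eif2b1 was lower in Pdap1-deficient than in control cells, and the other 9 genes did not pass the threshold. Eif2b1 was called in the fit of all genes (edgeR's quasi-likelihood test, Benjamini-Hochberg adjusted p under 0.05), 1 of 10 genes, where 4.92% of the 15074 genes tested were called. DESeq2's Wald test called Eif2b1 and Eif2b5, 2 of 10, where it called 9.37% of its genes. The fitted change was negative for 8 of the 10 genes, against 47.3% of all genes, and its median was -0.26 on the log2 scale against 0.02 for all genes. In 6 of the 10 genes the 3 Pdap1-deficient mice did not overlap the 3 controls, Eif2ak3 above them and Eif2s1, Eif2b1, Eif2b3, Eif2b4 and Eif2b5 below, and the same held for 31.7% of all genes. In bulk RNA fewer cells of a type and less mRNA per cell cannot be told apart.

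**Figure D2:**
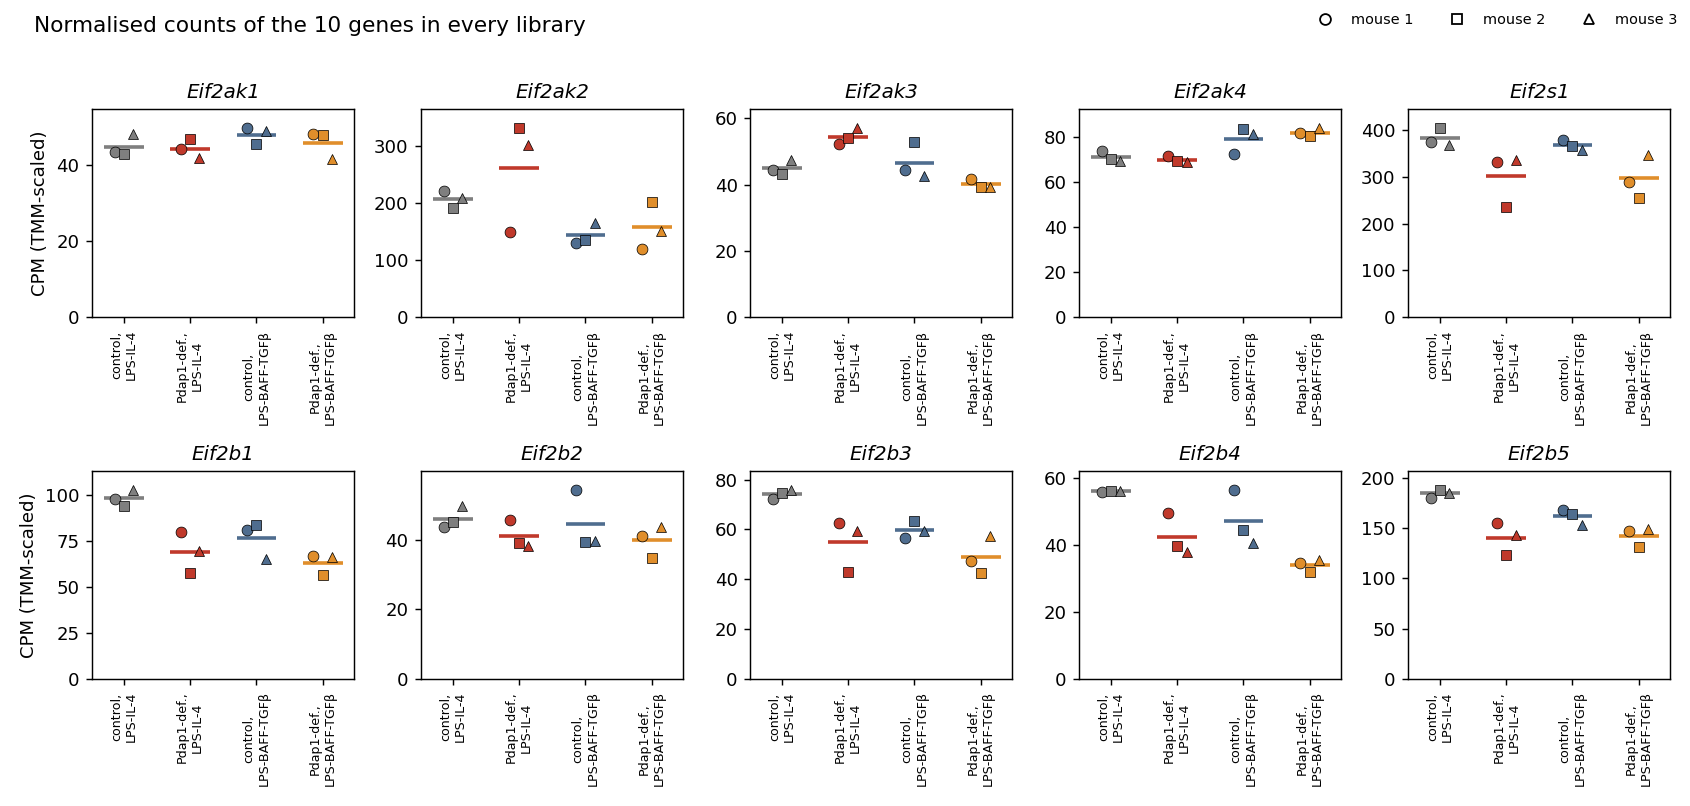
CPM of the 10 genes in every library, 1 panel per gene with axes from 0. Symbols mark mouse 1, 2 and 3 of a genotype and bars the mean of 3 mice; the eIF2B panels show all 3 Pdap1-deficient mice below the controls with LPS-IL-4 for each subunit but Eif2b2.

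Eif2b1 (ENSMUSG00000029388, chr5:124570213-124579131) encodes the α subunit, which holds the eIF2B decamer together and contributes to the site that binds phosphorylated eIF2α. With LPS-IL-4 it measured 97.8, 94.3 and 103 CPM in control mice 1, 2 and 3 and 79.9, 57.5 and 69.4 CPM in Pdap1-deficient mice 1, 2 and 3. All 3 Pdap1-deficient values lay below the lowest control, the lowest being that of mouse 2. Eif2b1 fell to 69.6% of control (log2 fold change -0.52, SE 0.13, 95% interval -0.81 to -0.23, adjusted p = 0.049). The call was close to the threshold: the adjusted p was 0.133 without Pdap1-deficient mouse 3, between 0.155 and 0.19 without any 1 control, and 0.132 with the sex of the mouse as a term. Without Pdap1-deficient mouse 2, whose cultures held the most myeloid counts, the log2 fold change was -0.39 and the adjusted p 0.0132.

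Eif2b5 (ENSMUSG00000003235, chr16:20498817-20509323), for the ε subunit that catalyses GDP release from eIF2, measured 180, 188 and 185 CPM in controls and 155, 123 and 143 CPM in Pdap1-deficient mice with LPS-IL-4. The controls were tightly grouped and all 3 Pdap1-deficient mice were below them. Its log2 fold change was -0.40 (SE 0.11), with adjusted p = 0.0676 in edgeR and 0.0235 in DESeq2.
Eif2b4 (ENSMUSG00000029145, chr5:31187558-31193430), for the δ subunit, measured 55.8, 56.2 and 56.2 CPM in controls and 49.5, 39.6 and 37.9 CPM in Pdap1-deficient mice. The groups did not overlap, and the log2 fold change of -0.41 (SE 0.12) had an adjusted p of 0.0795. Snx17 overlaps Eif2b4 on the opposite strand, and the strand setting used in counting is not given in the sources used here.
Eif2b3 (ENSMUSG00000028683, chr4:117019402-117087306), for the γ subunit that pairs with ε in the catalytic subcomplex, measured 72.1, 74.6 and 76 CPM in controls and 62.5, 42.9 and 59.4 CPM in Pdap1-deficient mice. Pdap1-deficient mouse 2 was again the lowest, and the groups did not overlap (log2 fold change -0.44, SE 0.14, adjusted p = 0.0988). Without that mouse the log2 fold change was -0.28 (adjusted p = 0.0564).
Eif2b2 (ENSMUSG00000004788, chr12:85219481-85226628), for the β subunit, was the exception among the 5, with 43.6, 45 and 49.6 CPM in controls and 45.7, 39.2 and 38.2 CPM in Pdap1-deficient mice. Its genotypes overlapped, and the interval of its log2 fold change ran from -0.43 to 0.08. Leaving out Pdap1-deficient mouse 1 moved this value from -0.17 to -0.28. In that fit edgeR also called Eif2b3, Eif2b4 and Eif2b5 lower (adjusted p = 0.0417, 0.0151 and 0.0293), among 1759 genes called. Without Pdap1-deficient mouse 2 Eif2b5 was called as well (edgeR adjusted p = 0.0157), among 1459 genes called. The main fit called 741 genes.

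Eif2s1 (ENSMUSG00000021116, chr12:78861819-78887010), the common substrate of the kinases, measured 374, 404 and 367 CPM in control mice and 332, 235 and 335 CPM in Pdap1-deficient mice with LPS-IL-4. The 3 Pdap1-deficient values were the lowest of the 6, and mouse 2 was far below the other two. The log2 fold change was -0.35 (SE 0.15, 95% interval -0.67 to -0.03) and did not pass the threshold (adjusted p = 0.179). Without Pdap1-deficient mouse 2 it was -0.19.

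Of the kinases none passed the threshold with LPS-IL-4 in edgeR or DESeq2, and 1 of the 4, Eif2ak3, had an unadjusted p under 0.05, as had 23.8% of all genes. Eif2ak3 (ENSMUSG00000031668, chr6:70844515-70905245), the ER stress sensor, measured 44.4, 43.1 and 47.4 CPM in controls and 52.2, 54.1 and 57.1 CPM in Pdap1-deficient mice. All 3 Pdap1-deficient mice were above all 3 controls, by a log2 fold change of 0.27 (SE 0.10, adjusted p = 0.137). It was the single one of the 10 genes to stand apart on the high side.
Eif2ak2 (ENSMUSG00000024079, chr17:78852564-78882573), the double-stranded RNA sensor, measured 222, 192 and 210 CPM in controls and 150, 332 and 302 CPM in Pdap1-deficient mice. Pdap1-deficient mouse 1 was below every control and mice 2 and 3 were above them, so that the fold change (0.31 on the log2 scale, 95% interval -0.34 to 0.96) is poorly fixed by 3 mice. Its adjusted p was 0.0156 without Pdap1-deficient mouse 1, at a log2 fold change of 0.58, and at least 0.437 in the main test of either tool. Without Pdap1-deficient mouse 2 the log2 fold change was 0.12 (adjusted p = 0.894), without mouse 3 it was 0.18, and with the sex of the mouse as a term it was 0.09 (0.898).
Eif2ak1 (ENSMUSG00000029613, chr5:143817788-143904251), the heme sensor, lies 1224517 bases from Pdap1 on the same chromosome. It measured 43.2, 42.7 and 48.1 CPM in controls and 44, 46.8 and 41.7 CPM in Pdap1-deficient mice, and the groups overlapped throughout. Its interval of -0.25 to 0.20 on the log2 scale leaves room for a small change only. Ankrd61 and Aimp2 overlap it on the opposite strand.
Eif2ak4 (ENSMUSG00000005102, chr2:118388618-118475234), the amino acid sensor, was the steadiest of the 10 genes within LPS-IL-4 cultures, with 74.1, 70.4 and 69.3 CPM in controls and 71.7, 69.3 and 68.9 CPM in Pdap1-deficient mice. The interval of its log2 fold change was -0.25 to 0.17.

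With LPS-BAFF-TGFβ the genotypes were less well separated, and edgeR called 0 of the 10 genes at a background of 0.462% of 14079 genes. DESeq2 also called 0 of the 10, at a background of 1.1%, and 2 of the 10, Eif2s1 and Eif2b4, had an unadjusted p under 0.05 in edgeR, where 10.6% of all genes had one. The fitted change was again negative for 8 of 10 genes, against 49.1% of all genes, with a median of -0.19 against 0.01. Pdap1-deficient mice lay wholly below controls for 4 genes, Eif2ak3, Eif2s1, Eif2b4 and Eif2b5, and 18.6% of all genes had groups that did not overlap. With library totals not scaled by TMM, Eif2b4 alone of these stayed apart. The highest Pdap1-deficient value then passed the lowest control for Eif2ak3 (6.88 against 6.65 RPKM), Eif2s1 (71.9 against 69.1) and Eif2b5 (59.1 against 58.5). With DESeq2's size factors all 4 stayed apart.

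**Figure D3:**
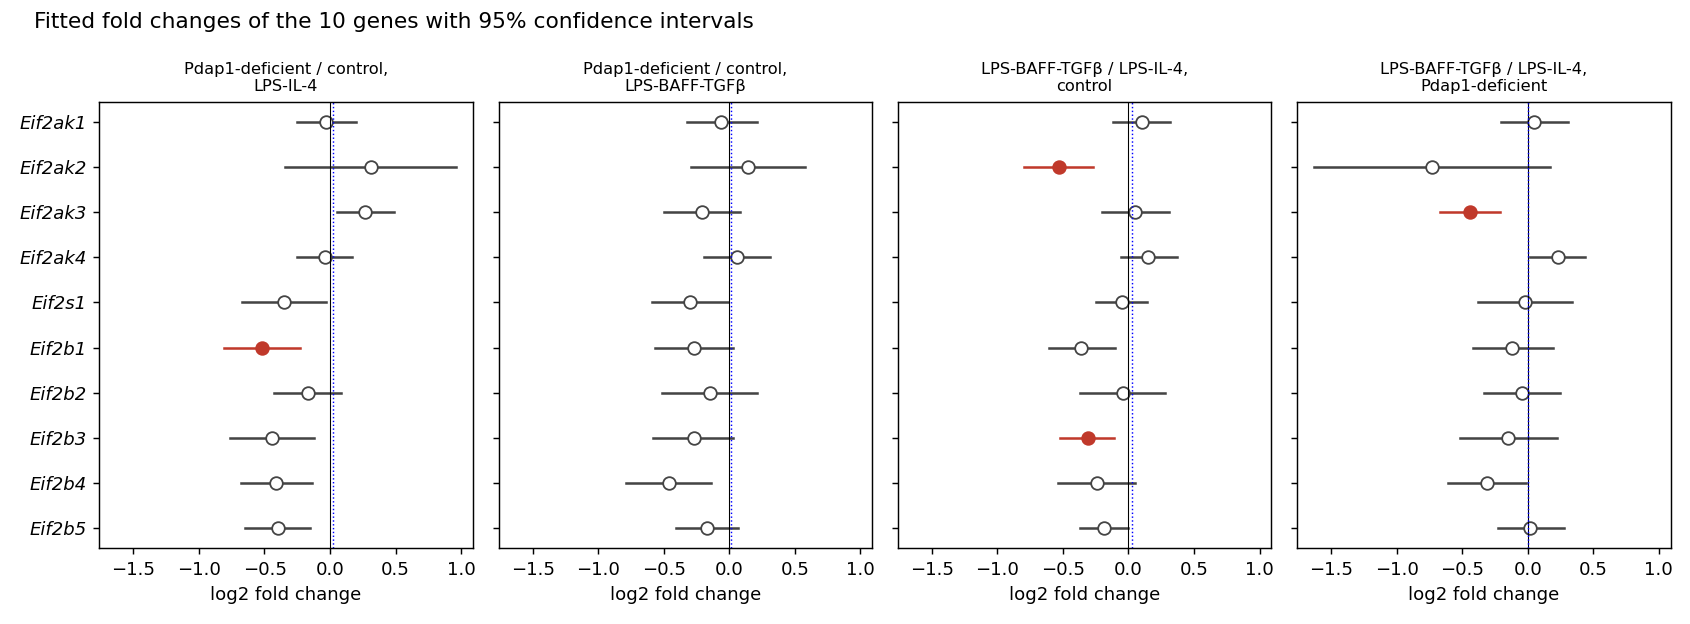
Fitted log2 fold changes (points) and 95% confidence intervals (lines) of the 10 genes in 4 comparisons; filled red points passed an adjusted p of 0.05 in edgeR and the dotted line is the median of all genes. Eif2b1 alone is called by genotype, with LPS-IL-4, and Eif2ak2, Eif2b3 and Eif2ak3 are called between cultures.

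Eif2s1 measured 378, 365 and 358 CPM in control mice 1, 2 and 3 with LPS-BAFF-TGFβ and 289, 255 and 346 CPM in Pdap1-deficient mice. Mouse 3 came close to the lowest control and the other two were well below (log2 fold change -0.30, SE 0.13, adjusted p = 0.466). Its size was near that seen with LPS-IL-4, from other libraries of the same 6 mice. Pdap1-deficient mouse 2, with the most myeloid counts, was the lowest in both cultures.
For Eif2b4 the values were 56.5, 44.4 and 40.5 CPM in controls and 34.5, 32 and 35.6 CPM in Pdap1-deficient cells. All 3 Pdap1-deficient cultures were lower than every control, although control mouse 1, the library with the highest total, stood apart from the other controls. The log2 fold change of -0.46 (SE 0.15) had an adjusted p of 0.34, and without control mouse 1 it was -0.32 (adjusted p = 0.335).
Eif2b5 measured 168, 164 and 153 CPM in controls and 147, 131 and 149 CPM in Pdap1-deficient cells, a narrow separation (log2 fold change -0.17, SE 0.11, adjusted p = 0.559). Eif2b1 measured 81.2, 83.8 and 65.3 CPM in controls and 66.9, 56.8 and 66.2 CPM in Pdap1-deficient cells. Control mouse 3 fell among the Pdap1-deficient values for Eif2b1. The interval of Eif2b1, -0.57 to 0.03, includes both no change and the log2 fold change of -0.52 measured with LPS-IL-4.
Eif2b3 measured 56.5, 63.4 and 59.5 CPM in controls and 47.3, 42.7 and 57.4 CPM in Pdap1-deficient cells, with overlap through mouse 3 (log2 fold change -0.27, SE 0.14). Eif2b2 measured 54.4, 39.4 and 39.5 CPM in controls and 41.1, 34.7 and 43.7 CPM in Pdap1-deficient cells and overlapped more widely, with a log2 fold change of -0.15 that became 0.02 without control mouse 1.
Among the kinases, Eif2ak3 measured 44.3, 52.8 and 42.7 CPM in controls and 41.8, 39.2 and 39.2 CPM in Pdap1-deficient cells. Here all 3 Pdap1-deficient cultures were just below the lowest control, the opposite side from LPS-IL-4 (log2 fold change -0.21, SE 0.13, adjusted p = 0.553). Eif2ak2 measured 130, 136 and 165 CPM in controls and 119, 202 and 152 CPM in Pdap1-deficient cells. Mouse 1 was again the lowest and mouse 2 the highest of the Pdap1-deficient mice, and without mouse 2 the log2 fold change went from 0.14 to -0.10. Eif2ak1 ranged from 41.6 to 49.6 CPM over the 12 libraries and Eif2ak4 from 68.9 to 84.2 CPM, and in neither did the genotypes separate in either culture.

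Whether the effect of genotype differed between the 2 cultures was tested directly, with an interaction term fitted to all 12 libraries. That fit had no term for the mouse, so the 2 cultures of a mouse counted as independent. With the mouse as a replicate block edgeR called 0 of the 10 genes and 0 of all genes. Without the block, none of the 10 genes was called by edgeR or DESeq2, where 0% and 0.019% of all genes were called. In edgeR 1 of the 10, Eif2ak3, had an unadjusted p under 0.05 (0.00499), as had 755 of the 15794 genes tested. For Eif2ak3 the difference between the genotype effects was -0.49 on the log2 scale (SE 0.15, 95% interval -0.81 to -0.18, adjusted p = 0.98). For the eIF2B genes the term ranged from -0.07 for Eif2b4 to 0.24 for Eif2b1, each with an interval that includes 0.

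The cultures were then compared within each genotype, as LPS-BAFF-TGFβ against LPS-IL-4. Each mouse gave 1 culture of each kind, so a fit with the mouse as a replicate block is given where it alters a call. In control cells Eif2ak2 and Eif2b3 were lower with LPS-BAFF-TGFβ, 2 of 10 genes, at a background of 19.3% of 14882 genes called. Eif2ak2 fell from 222, 192 and 210 CPM in control mice 1, 2 and 3 with LPS-IL-4 to 130, 136 and 165 CPM with LPS-BAFF-TGFβ. Every mouse moved down and the cultures did not overlap (log2 fold change -0.53, SE 0.12, adjusted p = 0.0147). DESeq2 called Eif2ak2 alone, 1 of 10, at a background of 14.4%. The Eif2ak2 call held in the paired fit (edgeR adjusted p = 0.0355) and was lost with all 12 libraries in 1 fit (0.21) and without the LPS-IL-4 library of control mouse 1 (0.079) or of control mouse 3 (0.0593).
Eif2b3 fell from 72.1, 74.6 and 76 CPM to 56.5, 63.4 and 59.5 CPM in the same mice (log2 fold change -0.31, SE 0.09, adjusted p = 0.0422). The cultures were well separated, but the adjusted p was 0.113 with the mouse as a replicate block and 0.079 in DESeq2, so this call rests on the choice of test. It was also lost without the LPS-IL-4 library of any control mouse and without the LPS-BAFF-TGFβ library of control mouse 3. In 4 genes, Eif2ak2, Eif2b1, Eif2b3 and Eif2b5, control cultures with LPS-BAFF-TGFβ were wholly below those with LPS-IL-4, where 37.8% of all genes had cultures that did not overlap. Without the LPS-BAFF-TGFβ library of control mouse 1, edgeR called 4858 genes in place of 2874. These held 5 of the 10 genes, Eif2ak2, Eif2b1, Eif2b3, Eif2b4 and Eif2b5, all lower.

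In Pdap1-deficient cells Eif2ak3 was the single gene called between cultures, 1 of 10, at a background of 11.5% of 14617 genes. It fell from 52.2, 54.1 and 57.1 CPM in Pdap1-deficient mice 1, 2 and 3 with LPS-IL-4 to 41.8, 39.2 and 39.2 CPM with LPS-BAFF-TGFβ. Cultures did not overlap, and every mouse moved down, mouse 1 the least (log2 fold change -0.44, SE 0.10, adjusted p = 0.0234). DESeq2 likewise called Eif2ak3 alone, at a background of 9.48%. In control cells the same contrast was 0.05 (SE 0.11) for Eif2ak3, and the difference between genotypes is the term given above. Without any 1 of the LPS-BAFF-TGFβ libraries, or without the LPS-IL-4 library of mouse 3, its adjusted p was between 0.071 and 0.116. Non-overlapping cultures were found for 3 of the 10 genes, Eif2ak4 above and Eif2ak3 and Eif2b4 below, and for 29.1% of all genes.
With the mouse as a replicate block, 4 of the 10 genes were called in Pdap1-deficient cells, and the count over all genes rose from 1675 to 3854. Eif2ak3 had then an adjusted p of 0.00146. Eif2ak2, which fell from 150, 332 and 302 CPM to 119, 202 and 152 CPM, had a log2 fold change of -0.69 (SE 0.11, adjusted p = 0.00203). Each mouse moved down while the mice differed widely, and without the block the adjusted p was 0.309.
Eif2b4 went from 49.5, 39.6 and 37.9 CPM to 34.5, 32 and 35.6 CPM (log2 fold change -0.30, SE 0.10, adjusted p = 0.0378 in the paired fit). Eif2ak4 was the single gene to rise, from 71.7, 69.3 and 68.9 CPM to 81.8, 80.5 and 84.2 CPM (log2 fold change 0.23, SE 0.08, adjusted p = 0.0389 in the paired fit). All 3 mice moved the same way for both genes, and neither was called without the block (adjusted p = 0.189 and 0.163).
Eif2ak4 in control cells went from 74.1, 70.4 and 69.3 CPM to 72.7, 83.6 and 81.7 CPM, lower in mouse 1 and higher in the other two, with a log2 fold change of 0.15 (SE 0.09, adjusted p = 0.304). Eif2s1 differed little between cultures, with log2 fold changes of -0.05 (95% interval -0.25 to 0.14) in control and -0.02 (-0.38 to 0.34) in Pdap1-deficient cells. The genotype and stimulation comparisons share libraries, so their values are set side by side only.

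Eif2ak2 was the kinase that varied most, and its level was high and low in the same libraries as that of interferon-stimulated genes. The 20 genes of that list, such as Isg15, Ifit1, Mx1 and Irf7, summed to 1191.0, 1091.2 and 1382.0 CPM in control mice 1, 2 and 3 with LPS-IL-4, against 832.5, 2720.3 and 1650.0 CPM in Pdap1-deficient mice. With LPS-BAFF-TGFβ the sums were 542.2, 512.6 and 574.7 CPM in controls and 423.5, 793.4 and 506.8 CPM in Pdap1-deficient mice. In each culture Pdap1-deficient mouse 1 had the lowest sum and the lowest Eif2ak2, and mouse 2 the highest of both. The summed myeloid markers followed the order of mice 1, 3 and 2 as well, 11.9, 38 and 312.2 CPM with LPS-IL-4 and 15.3, 80.1 and 549.2 CPM with LPS-BAFF-TGFβ, and mice 2 and 3 were the males. Their part in the level of Eif2ak2 was not tested beyond the values without mouse 2 and with sex as a term given above. Over the 12 libraries the genes most like Eif2ak2 in log2 CPM were Trim30a (Pearson r = 0.99), Ddx58 (0.97) and Ddx60 (0.96), all inducible by interferon, of which Ddx58 is also among the 20. These libraries come from 6 mice and share culture and mouse effects. Of the 20 listed genes 17 fell and 1 rose between cultures in control cells, where 19.3% of all genes were called, among them Oas3 (log2 fold change -3.92), Rsad2 (-3.35) and Isg15 (-1.68). In Pdap1-deficient cells 3 fell in edgeR, Isg15, Ifit1 and Ifih1, at a background of 11.5%, and 10 were called by DESeq2, at 9.48%. By genotype 0 of 20 were called in either culture by either tool, and 0 had an unadjusted p under 0.05. Over all genes in LPS-IL-4 cultures, edgeR called 4.92%, and 23.8% had such a p. For LPS-BAFF-TGFβ these shares were 0.462% and 10.6%. Of the 20, 17 were fitted higher with LPS-IL-4, at a median log2 fold change of 0.71 against 0.02 for all genes. The other culture had 16 fitted higher, at 0.23 against 0.01. The Pdap1-deficient mice differed widely in their sums, so the absence of calls does not show that these genes were unchanged.

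**Figure D4:**
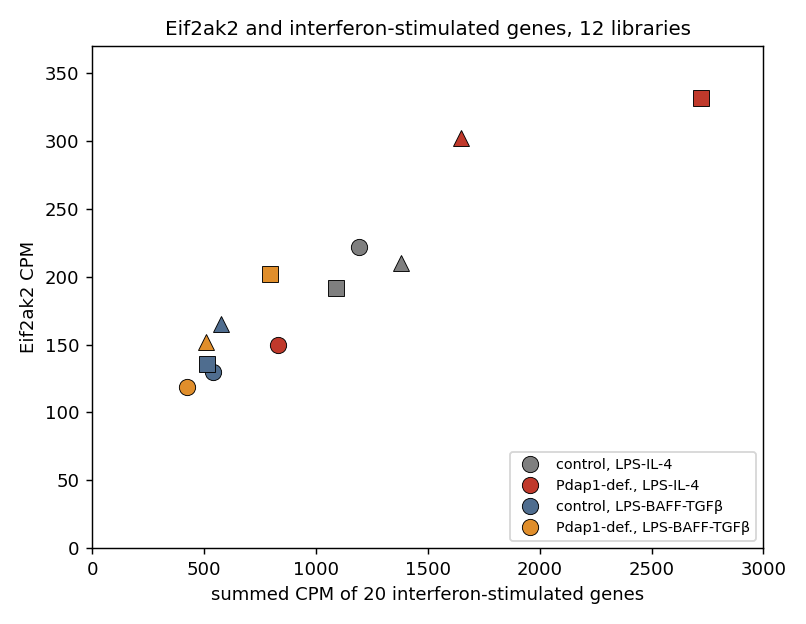
Eif2ak2 CPM (vertical axis) against the summed CPM of 20 interferon-stimulated genes (horizontal axis) in the 12 libraries, coloured by group, with circles, squares and triangles for mouse 1, 2 and 3. The 2 libraries highest on both axes are Pdap1-deficient mice 2 and 3 with LPS-IL-4.

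The genes most like the other kinases and Eif2s1 were found in the same way. For Eif2ak4 they were Slmap (Pearson r = 0.98), Fam49b (0.97) and Cdk17 (0.96). For Eif2s1 they were Gm15500 (0.98), a processed pseudogene, Npm1 (0.97) and Cct6a (0.97). For Eif2ak3 the highest values were 0.91 (Ighv2-9), 0.89 (Kin) and 0.85 (Gm43292, annotated on the opposite strand within Eif2ak3), and for Eif2ak1 they were 0.93 (Adamts10), 0.92 (Sirt6) and 0.90 (Trmt112-ps2). Without the LPS-BAFF-TGFβ library of control mouse 1 Trim30a stayed first for Eif2ak2, and Slmap, Cct6a, Ighv2-9, Kin and Adamts10 stayed among the first 3 of their gene, while the other names gave way.

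The partners of these genes in the pathway were compared by genotype in the same fits. Other eIF2 factors (Eif2s2, Eif2s3x, Eif2s3y, Cdc123 and Eif5), phosphatase subunits (Ppp1r15a and others) and kinase regulators (Gcn1, Impact, Hspa5 and others) gave 0 calls by genotype in either culture by edgeR or DESeq2. Of those tested, unadjusted p was under 0.05 for 0 of 5, 1 of 4 and 3 of 10 with LPS-IL-4 and for 0 of 5, 1 of 4 and 0 of 10 with LPS-BAFF-TGFβ, against 23.8% and 10.6% of all genes. Eif2s2, for the β subunit of eIF2, measured 312, 319 and 297 CPM in control mice and 430, 286 and 444 CPM in Pdap1-deficient mice with LPS-IL-4. Pdap1-deficient mice 1 and 3 were above controls and mouse 2 below them, unlike Eif2s1, for which all 3 were low. Of the transcription factors of the integrated stress response and Atf4-dependent genes, 10 of 12 tested rose with LPS-IL-4 and 6 of 11 with LPS-BAFF-TGFβ, where 4.92% and 0.462% of all genes were called, and the others did not pass. Atf4 itself rose from 274, 282 and 295 CPM to 692, 464 and 603 CPM with LPS-IL-4 (log2 fold change 1.04, SE 0.15).
Between cultures, Ppp1r15a, the stress-induced subunit that directs phosphatase to eIF2α, fell in both genotypes. It measured 20.7, 21 and 21.6 CPM in control mice with LPS-IL-4 and 11.8, 9.25 and 10.1 CPM with LPS-BAFF-TGFβ (log2 fold change -1.01, SE 0.14), and in Pdap1-deficient cells its log2 fold change was -0.86 (SE 0.15). Its cultures did not overlap in either genotype. Hspa5, the ER chaperone that holds Eif2ak3 inactive, fell by 0.70 in control and 0.74 in Pdap1-deficient cells on the log2 scale. Impact, which inhibits Eif2ak4, fell by 0.53 and 0.60, and Adar, an RNA editor that limits activation of Eif2ak2, fell by 0.62 in control cells. In control cells edgeR called 3 of 10 kinase regulators and 1 of 4 phosphatase subunits tested, where 19.3% of all genes were called. In Pdap1-deficient cells it called 2 of 10 and 1 of 4, at a background of 11.5%.

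**Figure D5:**
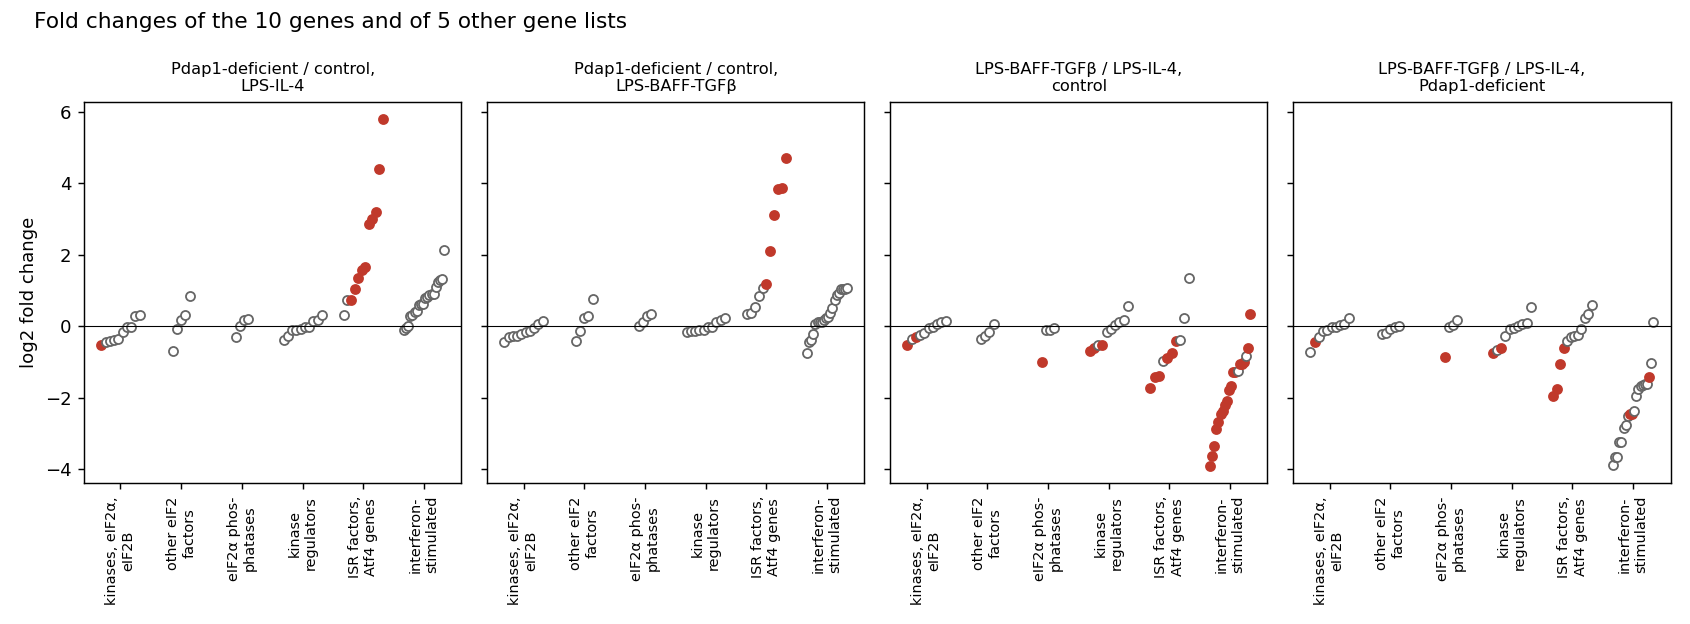
Log2 fold change of each tested gene of the 10 described here and of 5 other lists, in 4 comparisons; filled red points passed an adjusted p of 0.05 in edgeR. By genotype the calls lie in the list of stress response factors and Atf4-dependent genes and in Eif2b1, while interferon-stimulated genes are mostly lower with LPS-BAFF-TGFβ.

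The genotypes also differed in the sex of the mice. Eif2s3y, the Y-linked gene for the γ subunit of eIF2, measured 133 to 171 CPM in both cultures of control mouse 2 and of Pdap1-deficient mice 2 and 3, and at most 0.0159 CPM in the other libraries. Its X-linked partner Eif2s3x was lower in those 3 mice, 73.2, 42.6 and 57.8 CPM with LPS-IL-4, than in the other 3 mice, at 127, 112 and 92 CPM. With the sex of the mouse as a term, 173 genes and 0 of the 10 were called by genotype with LPS-IL-4, where 741 genes were called without it. The log2 fold changes of the eIF2B genes were then between -0.46 and -0.13. Pdap1-deficient mouse 2, a male with the most myeloid counts, also had the lowest Eif2s1, Eif2b1, Eif2b3 and Eif2b5 of the LPS-IL-4 libraries. Of the LPS-BAFF-TGFβ libraries it had the lowest Eif2s1 and the lowest level of each eIF2B gene, beside a myeloid sum of 549.2 CPM. The part of sex and myeloid counts in the result of either culture was not tested beyond the values given here.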

How the data were processed

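RNA-seq counts of 12 libraries were analysed. Per the paper's methods, the authors depleted ribosomal RNA, made stranded libraries and counted reads per gene with the PiGx pipeline; the submitters' processing notes name Trim Galore 0.6.1, STAR 2.6, HTSeq 0.9.1 and GRCm38. The deposited counts were not normalized by the authors. Annotation release and strand setting are not given in the sources used here. The labels name CH12 cells and an mRNA kit. The paper's methods, followed here, give B cells from mouse spleens and a kit for total RNA. The labels give no age or sex of a mouse. A second, normalized table was not used.

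Symbols, positions and lengths came from GENCODE M21 (GRCm38), which matched all 55536 features. Groups were compared with edgeR 4.0.16 in R 4.3.3: filterByExpr, TMM, robust quasi-likelihood test, and a Benjamini-Hochberg adjusted p under 0.05 over all genes tested. DESeq2 1.42.0 was an alternative. CPM and RPKM used totals scaled by TMM over the 12 libraries, and correlations used log2 CPM with a prior count of 2. In the genotype comparisons within a culture, with 3 mice per group, p-values measure the spread between mice. Fits between cultures and fits of all 12 libraries took the 2 cultures of a mouse as independent, except with a replicate block. Median biological variation was 17.2% in the LPS-IL-4 genotype comparison. Replicates were checked and were not copies of each other.

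Cultures of a mouse share its number by the series description and so are paired. Deviations from group means correlated at 0.58, 0.62 and 0.29 for the Pdap1-deficient mice and at -0.18, 0.34 and -0.02 for the controls. The steps were tested on simulated data. Genes named are Pdap1, the 10 genes, members of 5 pathway lists that passed the threshold or are set beside one of the 10, and the 3 genes most like each kinase and Eif2s1. Some list members that met this rule are not reported here. The 10 genes and the lists were chosen with earlier results of these data known. Promoters were those of RefSeq for GRCm38.p6. Figures were drawn with matplotlib 3.10.9.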

Additional observations from a re-analysis of the deposited data

Results flagged for a closer look

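Eif2ak3 was singled out because its genotype groups separated in opposite directions in the 2 cultures. With LPS-IL-4 the 3 Pdap1-deficient mice (52.2 to 57.1 CPM) were all above the 3 controls (43.1 to 47.4 CPM), and with LPS-BAFF-TGFβ they (39.2 to 41.8 CPM) were all below them (42.7 to 52.8 CPM). The difference between the genotype effects was -0.49 on the log2 scale (SE 0.15) and did not pass the threshold in the fit over all genes (edgeR adjusted p = 0.98), nor did it in any of 21 alternative fits, whose adjusted p ranged from 0.558 to 1. The estimate ran from -0.54 to -0.39 in these fits, which reuse the same libraries. Its negative sign follows from the rule that singled the gene out. With library totals not scaled by TMM the genotypes overlapped with LPS-BAFF-TGFβ (Pdap1-deficient 6.26 to 6.88, control 6.65 to 8.96 RPKM).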

How the results depend on the processing

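Of 830 alternative values of the fold changes of the 10 genes, 25 lost and 18 gained a call. Size was compared only where neither fit had a call, and there 6 differed from the reported value by more than its standard error. The remaining 781 either kept a call, whatever their size, or had none and stayed within that error. In 27 of the 830 the sign was opposite to the reported value, which was at most 0.20 in size for these. None of the 27 involved a call. For genotype with LPS-IL-4, where 741 genes and 1 of the 10 were called, DESeq2 called 1229 and 2, no filter on low counts 1694 and 4, an adjusted p under 0.01 130 and 0, and a term for sex, added after seeing the data, 173 and 0. With all 12 libraries in 1 fit 588 genes and 2 of the 10 were called. Leaving out 1 library gave 69 (without control mouse 2) to 1759 genes and 0 to 5 of the 10, the highest of both without Pdap1-deficient mouse 1. For genotype with LPS-BAFF-TGFβ, where 65 genes were called, the same settings gave 174, 257, 27 and 42 genes, all 12 libraries 133, and leaving out 1 library 19 (without control mouse 3) to 116 (without control mouse 1), with 0 of the 10 throughout. Between cultures of control cells 2874 genes and 2 of the 10 were called. DESeq2 called 2782 genes and 1 of the 10, and libraries thinned to the smallest gave 2584 and 1. All 12 libraries in 1 fit gave 2868 genes and 0 of the 10, and an adjusted p under 0.01 left 1515 and 0. Leaving out 1 library gave 1608 (without LPS-IL-4 mouse 1) to 4858 genes and 0 to 5 of the 10, the highest of both without LPS-BAFF-TGFβ mouse 1. Between cultures of Pdap1-deficient cells, where 1675 genes were called, an adjusted p under 0.01 left 853 genes and 0 of the 10, and leaving out 1 library gave 908 (without LPS-BAFF-TGFβ mouse 1) to 2235 genes (without LPS-IL-4 mouse 2) and 0 to 2 of the 10. For the interaction, 0 genes were called, 6 by DESeq2 and 1 with no filter, and 0 to 1 when 1 library was left out.

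With the mouse as a replicate block, 1989 genes and 1 of the 10 were called between cultures of control cells. In Pdap1-deficient cells 3854 genes and 4 of the 10 were called. In the genotype comparisons mice share only a number, and that replicate block called 641 genes and 1 of the 10 with LPS-IL-4 and 48 and 0 with LPS-BAFF-TGFβ. Correlations of same-numbered mice across genotypes ran from -0.21 to 0.10.

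Among the lists, DESeq2 called 10 interferon-stimulated genes in place of 3 between cultures of Pdap1-deficient cells, and 1 stress response gene in place of 0 for the interaction. Without the LPS-IL-4 library of control mouse 1, stress response genes called by genotype went from 10 to 6 and regulators called between control cultures from 3 to 2, whereas without its LPS-BAFF-TGFβ library the latter went from 3 to 5. The ratio of Eif2s1 to eIF2B was 2.85 and 2.93 with LPS-IL-4 and 3.22 and 3.06 with LPS-BAFF-TGFβ, control first, when the longest coding transcript gave the length. Set against the lowest subunit it was 6.78, 7.21, 8.11 and 7.95 in the same order. Eif2ak4 and Eif2b3 swapped ranks with that length, and 8 of 10 genes kept theirs. The causes of these shifts were not tested. Each of the 10 genes had at least 155 counts in every library.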
